A study of Mus musculus with 14 samples.

Results

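The mouse Schlafen genes were followed in RNA from 14 microarrays of regulatory T cells (Tregs), a Foxp3-expressing class of CD4+ T cells that restrains other immune cells. The 10 genes described were Slfn1, Slfn2, Slfn3, Slfn4, Slfn5, Slfn8, Slfn9, the pseudogene Slfn10-ps, Slfn14 and Slfnl1, out of 21902 gene symbols on the array, and each matched 1 transcript cluster, which is the set of probes that reads 1 gene. The family was chosen by measured values, a higher Slfn8 and a lower Slfn9 signal in the arrays labelled Atg14 knockout (KO) in both Treg subsets, so every difference of a Schlafen gene between the genotype labels is given below as a description with no test. Differences between Treg subsets did not enter that choice and were tested.

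Schlafen proteins share an N-terminal domain and fall into short, intermediate and long forms, of which the long ones add a helicase-like region. Several family members are induced by interferon, several bind or cleave transfer RNA or act on ribosomes, and Slfn2 is known as a gene that T cells need to stay quiescent. In mice most of the genes lie side by side on chromosome 11, and Slfnl1, a schlafen-like gene of little known function, lies on chromosome 4.

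The cells came from mixed bone marrow chimeras, made by giving sublethally irradiated Rag1-/- hosts, which lack T and B cells of their own, a 1:1 mixture of CD45.1+ wild-type marrow and CD45.2+ donor marrow, with 6 to 8 weeks for reconstitution. CD45.2+ donors were Foxp3Cre Atg14+/fl for the control groups (labelled heterozygous) and Foxp3Cre Atg14fl/fl for the groups labelled KO, so the controls also carried the Foxp3-driven Cre and 1 floxed allele. Atg14 is a subunit of the Vps34 lipid kinase complex that starts autophagy. Foxp3-YFP+ cells were sorted as central Tregs (cTregs, CD44 low) or effector Tregs (eTregs, CD44 high), with 4 control cTreg, 3 KO cTreg, 4 control eTreg and 3 KO eTreg arrays. The methods place all genetic models on the C57BL/6 background, with mice of both sexes used. They give an age range for the strain in general, and the age of the marrow donors of these arrays was not given in the sources used here. They also state that fl/fl mice carrying a deleted Atg14 allele entered some experiments without a marked difference in phenotype, and whether donors of these arrays carried one was not stated. The tissue is given as spleen plus peripheral lymph nodes in the series description but as spleen in the methods.

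Values were log2 signals after robust multi-array averaging, a scale on which a difference of 1 is a doubling. Foxp3 had a mean of 12.81 in control cTregs and 12.90 in KO eTregs, and the groups' arrays overlapped. Cd44, which was used for the sort, was 1.61 higher in control eTregs than in control cTregs (limma, adjusted P = 0.000121). The signal of the targeted gene did not fall with the label: Atg14 was 0.32 higher in KO eTregs than in control eTregs and 0.35 higher in KO cTregs than in control cTregs (SE 0.14 for both differences), and its arrays overlapped in both subsets. The position of its probes relative to the deleted part was not known, so the groups are called labelled KO. The study reports that Atg14 deletion was verified by quantitative PCR in Tregs sorted from Foxp3Cre Atg14fl/fl mice. The legend of that measurement does not name the chimeras used for these arrays. A list of 16 monocyte and macrophage markers, summed on the linear scale, ranged from 4448 to 4815 in control cTregs, from 4942 to 5415 in labelled KO cTregs and from 8255 to 10840 in control eTregs. In labelled KO eTregs the sum was 6048 on array 1, 29620 on array 2 and 31230 on array 3, and 0 of the 16 markers had a group mean under the background probes in any group. In bulk RNA, fewer cells of a type and less RNA per cell cannot be told apart.

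The 10 Schlafen genes lay above the median of the 23 background probe sets on 14 of 14 arrays, a median that ran from 6.00 to 6.30. The short genes Slfn1 and Slfn2 had means over all arrays of 10.74 and 11.62, and the long gene Slfn5 had a mean of 11.80. Slfn4, an intermediate form best known from myeloid cells, and Slfn14, a ribosome-associated RNA-cleaving protein known from platelets, gave signals between 7.25 and 7.78 and between 7.23 and 8.03. Signals of different probe sets depend on the probes, so these means are not ranked against each other. Array by array, Slfn8, Slfn9 and Slfn10-ps separated the genotype labels and the other 7 members did not in both subsets.

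**Figure D1:**
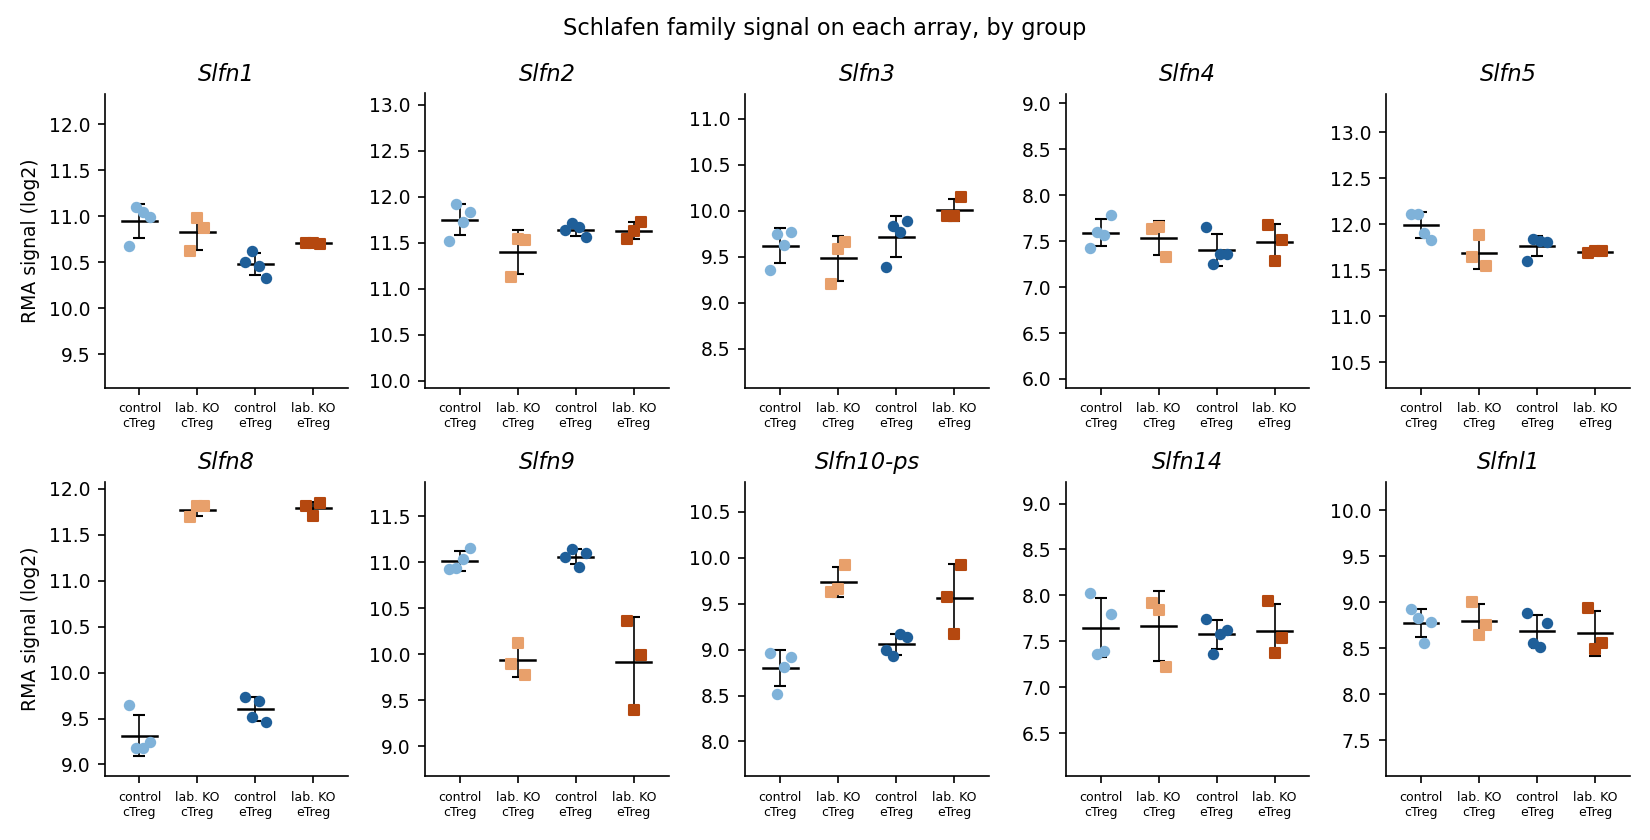
Log2 signal of the 10 Schlafen genes on each of the 14 arrays, with 1 point per array, a horizontal bar at the group mean and error bars of 1 SD; each panel spans the same range of log2 units. Slfn8 and Slfn10-ps sit higher and Slfn9 lower in both groups labelled KO, while the groups of Slfn4, Slfn14 and Slfnl1 overlap.

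Slfn8, a long Schlafen with a helicase-like region, had the clearest pattern. Its signals in control cTregs were 9.65, 9.18, 9.18 and 9.24, and in labelled KO cTregs 11.69, 11.81 and 11.82. In control eTregs they were 9.73, 9.52, 9.69 and 9.47, and in labelled KO eTregs 11.81, 11.71 and 11.85. Every labelled KO array lay above every control array in both subsets, and the SD within a group was 0.23 or less. The difference was 2.19 in eTregs (SE 0.12, 4.55-fold, 3 against 4 arrays) and 2.46 in cTregs (SE 0.12, 5.51-fold, 3 against 4 arrays). By size it was the 4th of 22203 transcript clusters in eTregs and the 1st in cTregs, values that come from the contrast used to choose the family. Slfn8 was 11.81 on the labelled KO eTreg array with the macrophage sum of 6048, 11.71 on the array with 29620 and 11.85 on the array with 31230. An array signal depends on the amount of transcript and on how its sequence binds the probes, and no second measurement told these apart here for Slfn8, Slfn9 or Slfn10-ps.

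Slfn9, the long Schlafen gene next to Slfn8, ran the other way. Its signals in control cTregs were 10.93, 10.93, 11.03 and 11.16, and in labelled KO cTregs 9.90, 10.13 and 9.77. In control eTregs they were 11.05, 11.14, 10.95 and 11.10, and in labelled KO eTregs 10.36, 9.39 and 9.99. The labelled KO arrays lay below the controls without overlap, with a wider spread in labelled KO eTregs (SD 0.49, n = 3) than in control eTregs (SD 0.08, n = 4). The difference was -1.15 in eTregs (SE 0.17) and -1.08 in cTregs (SE 0.17). Without labelled KO eTreg 2 the eTreg difference was -0.89, without labelled KO eTreg 1 it was -1.37, and with arrays 2 and 3 both left out it was -0.70.

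Slfn10-ps, annotated as a pseudogene, moved with Slfn8. Its signals were 8.96, 8.52, 8.81 and 8.91 in control cTregs and 9.62, 9.66 and 9.92 in labelled KO cTregs. In eTregs they were 8.996, 8.93, 9.17 and 9.13 in controls and 9.58, 9.17 and 9.92 in arrays labelled KO. The cTreg groups were well apart, whereas in eTregs the lowest labelled KO array, at 9.175, only just cleared the highest control, at 9.168. The difference was 0.93 in cTregs (SE 0.16) and 0.50 in eTregs (SE 0.16), and the eTreg difference was 0.32 without labelled KO eTreg 3 and 0.69 without labelled KO eTreg 2.

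The other members differed less between labels. In cTregs Slfn2 was -0.35 (SE 0.12) and Slfn5 -0.30 (SE 0.11) in labelled KO against control arrays, with overlapping arrays for both. In eTregs Slfn1 was 0.23 (SE 0.12) and Slfn3 0.29 (SE 0.15) higher on arrays labelled KO, without overlap, while in cTregs the same genes were -0.13 and -0.14 with overlap. Slfn4, Slfn14 and Slfnl1 lay between -0.06 and 0.09 in both subsets. At a log2 difference of 0.5 and an unadjusted P below 0.05, 2.72% of all transcript clusters passed in eTregs and 0.576% in cTregs, and no P is given for the members, since this contrast chose the family. Arrays did not overlap for 5 of 10 members in eTregs (6.85% of all transcript clusters) and for 3 of 10 in cTregs (5.05%), and Slfn8, Slfn9 and Slfn10-ps, 3 of 10, were apart in the same direction in both subsets (0.356%). These counts come from the contrast that chose the family and are given as descriptions.

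The promoter sequences of the opposed neighbours are shown because Slfn8 and Slfn9 had the largest differences of the family and lie next to each other. RefSeq (GRCm38.p6) gave a promoter for 9 of the 10 members, covering 250 bases before and 50 after the annotated start; for Slfn8, which has several starts, the one farthest upstream was taken. Slfn8 is at chr11:83020761-83021060 and Slfn9 at chr11:82991781-82992080, both on the minus strand and printed 5′ to 3′, with capitals at letters that, on the opposite strand, hold GAAA 2 times with 2 bases between, a pattern found in interferon-stimulated response elements.
Slfn8: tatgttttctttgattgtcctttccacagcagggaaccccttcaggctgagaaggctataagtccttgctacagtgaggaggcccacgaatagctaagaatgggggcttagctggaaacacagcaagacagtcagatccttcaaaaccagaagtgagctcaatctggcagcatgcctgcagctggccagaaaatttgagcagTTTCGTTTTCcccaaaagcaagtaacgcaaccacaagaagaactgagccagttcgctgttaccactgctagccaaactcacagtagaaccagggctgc
Slfn9: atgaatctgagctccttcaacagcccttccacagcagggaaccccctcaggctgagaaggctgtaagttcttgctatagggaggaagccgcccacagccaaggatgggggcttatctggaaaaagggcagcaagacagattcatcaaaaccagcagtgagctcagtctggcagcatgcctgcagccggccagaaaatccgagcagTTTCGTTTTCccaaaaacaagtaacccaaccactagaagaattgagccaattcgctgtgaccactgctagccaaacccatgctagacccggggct

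In a global alignment the promoters of Slfn8 and Slfn9 were identical in 252 of 312 columns (80.8%), with 36 substituted columns and 24 gap columns. The next most similar of the 36 pairs of family promoters reached 53.0%, and the median pair 49.6%. The capitals stood from -48 to -39 in Slfn8 and from -45 to -36 in Slfn9, counted from the first transcribed base, and were the same 10 letters. Slfn5 also matched the pattern with other letters from -155 to -146. Searched on both strands, the repeated GAAA was present in 3 of 9 family promoters and in 944 of 27025 promoters, 1 per gene (3.49%). The pattern was chosen after the sequences had been read, and a match is a description of letters only. The matrix marked 0 of its 28846 entries as cross-hybridising, and probe sequences were not used here, so how far the probes of such similar genes read each other's transcripts was not tested.

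The short and intermediate genes were alike in another stretch, CAGGAAGT, the core of sites bound by Ets transcription factors. Its letters, on either strand, were found in the promoters of Slfn1, Slfn2, Slfn3 and Slfn4, which are 4 of 9 family promoters, and in 910 of 27025 promoters (3.37%); none of its matches overlapped one of the repeated GAAA. These 4 genes are the ones whose promoters carry it, and they are shown with the matching letters in capitals, in windows of 40 bases on the plus strand of GRCm38.p6 at chr11:83116730-83116769, chr11:83065041-83065080, chr11:83191272-83191311 and chr11:83175097-83175136.
Slfn1: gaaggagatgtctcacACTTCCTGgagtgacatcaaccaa
Slfn2: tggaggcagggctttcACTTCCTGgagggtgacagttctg
Slfn3: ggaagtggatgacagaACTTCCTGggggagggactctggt
Slfn4: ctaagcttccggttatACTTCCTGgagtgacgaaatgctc

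The match stood from -74 to -67 in Slfn1, from -55 to -48 in Slfn2, from -42 to -35 in Slfn3 and from -73 to -66 in Slfn4, and the promoter of Slfn3 held another match from -60 to -53 on the other strand. This pattern too was chosen after the sequences had been read. None of the 4 genes separated the genotype labels in both subsets. Neither did Slfn5, which matched the repeated GAAA, nor Slfn14 and Slfnl1, which matched neither pattern. No relation between letters and signals was tested.

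In RefSeq order the measured genes of the block on chromosome 11 run Slfn5, Slfn9, Slfn8, Slfn10-ps, Slfn2, Slfn1, Slfn4, Slfn3 and Slfn14. The block holds 19 RefSeq genes, and the other 10, pseudogenes and noncoding RNAs such as Gm11424, Mir7679 and Gm11425, had no transcript cluster. The members with the largest differences between labels were consecutive among the measured genes: Slfn9 at -1.15 and -1.08, Slfn8 at 2.19 and 2.46, and Slfn10-ps at 0.50 and 0.93 in eTregs and cTregs. On either side of them, Slfn5 was at -0.06 and -0.30 and Slfn2 at -0.01 and -0.35. Beyond the block, the 10 nearest measured genes on each side ran from -0.33 to 0.31 in eTregs and from -0.19 to 0.32 in cTregs. Of these 20, 0 differed by 0.5 in either subset. Over all transcript clusters, 2.72% in eTregs and 0.576% in cTregs passed 0.5 with an unadjusted limma P below 0.05. Arrays did not overlap for 1 of 20 in eTregs (Taf15, 6.85% of all) and 1 of 20 in cTregs (Ccl5, 5.05%). In both subsets it was 0 of 20, against 0.356% of all in the same direction. With shares this low, 0 of 20 does not set the flanking genes apart from other genes. The largest differences of these 20, averaged over the subsets, were Ccl9 (0.20), Heatr9 (-0.19), Tmem132e (0.18), 1700020L24Rik (0.17) and Ccl5 (0.12), of which Ccl9 and Ccl5 encode chemokines. Differences of 0.5 or more were thus found at Slfn9 and Slfn8 in both subsets and at Slfn10-ps in cTregs. In eTregs Slfn10-ps was at 0.499, just under 0.5. These 3 members lie next to each other among the measured genes, and none of the flanking genes measured reached 0.5.

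**Figure D2:**
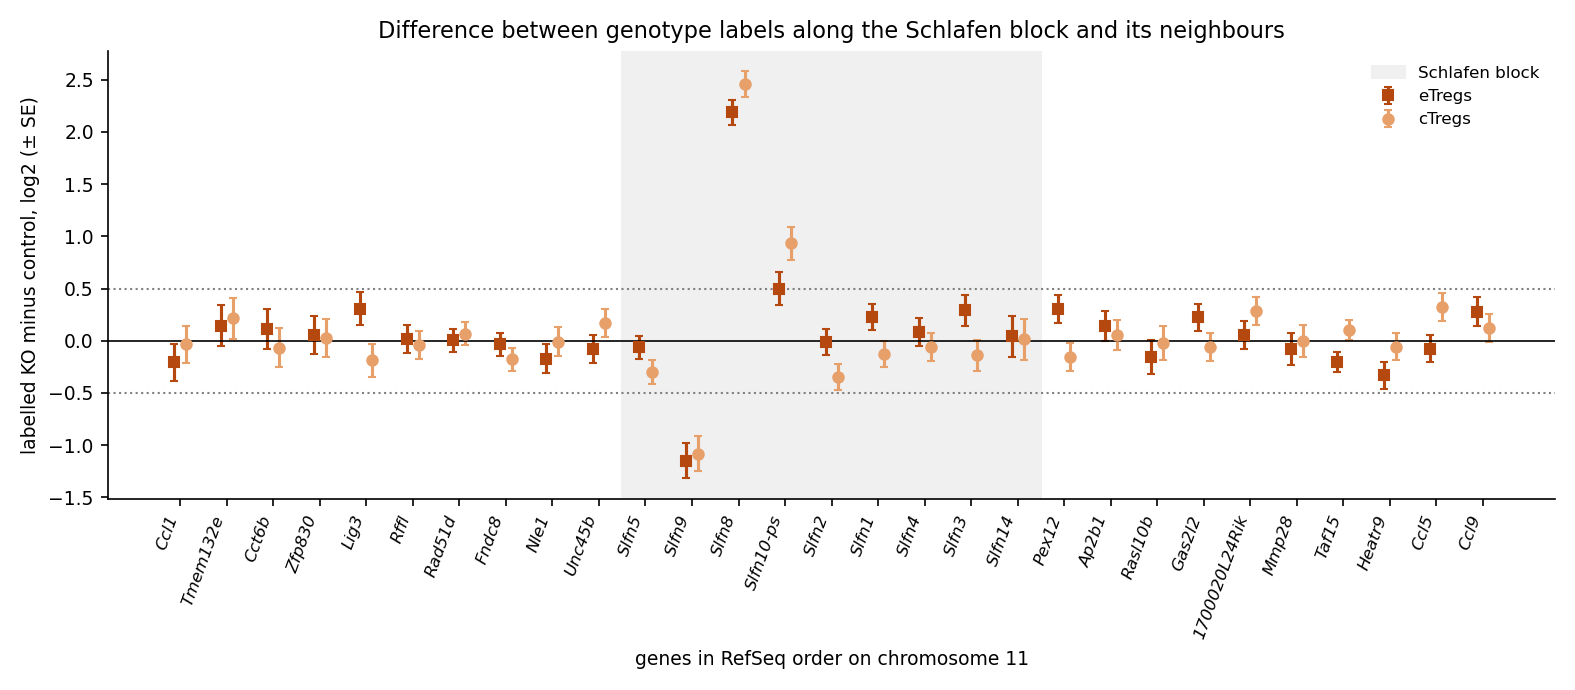
Log2 difference between arrays labelled KO and controls, with its SE, for the 9 measured Schlafen genes on chromosome 11 (shaded) and 10 measured genes on each side, in RefSeq gene order and not to scale; squares are eTregs, circles cTregs, and dotted lines mark 0.5 and -0.5. Slfn9 and Slfn8 lie outside the dotted lines in both subsets and Slfn10-ps in cTregs, while in eTregs Slfn10-ps lies at the line (0.499). The 20 flanking genes stay between -0.33 and 0.32.

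Between the subsets, no Schlafen gene passed the test. With limma and a threshold of a log2 difference of 0.5 and an adjusted P below 0.05, 0 of 10 members were called between control eTregs and control cTregs, where 3.06% of 22203 transcript clusters were. At an unadjusted P below 0.05 and any size 3 of 10 members passed, Slfn1, Slfn5 and Slfn8 (12.8% of all), and at an adjusted P below 0.05 and any size 1 did, Slfn1 (3.58%). The study's figure legend counts as many chimeras under each label as there are arrays per subset, with both subsets sorted from them, so the arrays of a group were probably from separate mice, and a cTreg and an eTreg array may share a mouse. The labels do not tie arrays to mice, so the P values measure the spread between arrays.

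Slfn1, a short Schlafen known to slow T cell growth when overexpressed, came closest. Its signals were 10.68, 11.10, 11.04 and 10.99 in control cTregs and 10.51, 10.63, 10.45 and 10.33 in control eTregs. Every control eTreg array lay below every control cTreg array. The difference was -0.47 (95% confidence interval -0.71 to -0.23, adjusted P = 0.0259), just short of 0.5 in size, and 1 of 10 members was without overlap in this comparison against 11.1% of all transcript clusters. Without control cTreg 1 it was -0.56 (adjusted P = 0.00965), past both thresholds, and over the arrays left out in turn the adjusted P ran from 0.00965 to 0.103. In labelled KO arrays Slfn1 was 10.62, 10.98 and 10.88 in cTregs and 10.71, 10.71 and 10.70 in eTregs, with overlap and a difference of -0.12 (-0.39 to 0.16, adjusted P = 0.757).

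Slfn3, an intermediate form known from the gut lining and T cells, leaned the other way in the labelled KO arrays. Its signals there were 9.20, 9.59 and 9.66 in cTregs and 9.94, 9.94 and 10.15 in eTregs, without overlap. The difference was 0.53 (0.19 to 0.87), which did not pass after adjustment (adjusted P = 0.104, unadjusted P = 0.00427), and 0 of 10 members were called where 2.35% of all transcript clusters were. With the replicate number as a block its adjusted P was 0.0235, past the threshold, though the numbers were not shown to pair the arrays. It was the 1 member of 10 without overlap (14% of all) and the 1 member past an unadjusted P of 0.05 at any size (13.8% of all). In controls Slfn3 was 9.35, 9.74, 9.63 and 9.76 in cTregs and 9.39, 9.83, 9.77 and 9.89 in eTregs, a difference of 0.10 (-0.19 to 0.39, adjusted P = 0.895). On the labelled KO eTreg arrays Slfn3 was 9.94 at a macrophage sum of 6048, 9.94 at 29620 and 10.15 at 31230, and the part of macrophage RNA in the difference was not tested.

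Slfn2, the quiescence gene, was -0.11 in controls (-0.35 to 0.14, adjusted P = 0.837) and 0.23 in arrays labelled KO (-0.05 to 0.51, adjusted P = 0.483). Its signals were 11.52, 11.92, 11.73 and 11.83 in control cTregs, 11.63, 11.71, 11.67 and 11.56 in control eTregs, 11.12, 11.54 and 11.53 in labelled KO cTregs, and 11.54, 11.63 and 11.72 in labelled KO eTregs. The subsets overlapped under both labels, and the lowest value of all was on labelled KO cTreg 1. Slfn5 was -0.22 in controls (-0.44 to -0.01, adjusted P = 0.371) and 0.01 in arrays labelled KO (-0.24 to 0.27). Its control signals were 12.11, 12.11, 11.91 and 11.83 in cTregs and 11.60, 11.84, 11.82 and 11.80 in eTregs, which overlapped by 1 array, and its labelled KO signals lay between 11.54 and 11.88.

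The genes that separated the labels did not separate the subsets. Slfn8 was 0.29 higher in eTregs than in cTregs among controls (0.05 to 0.53, adjusted P = 0.25) and 0.01 higher among arrays labelled KO (-0.26 to 0.29, adjusted P = 0.979). Slfn9 differed by 0.05 (-0.29 to 0.38) and -0.02 (-0.40 to 0.37). Slfn10-ps differed by 0.25 (-0.05 to 0.56) and -0.18 (-0.54 to 0.18), with arrays of both subsets overlapping in each case. The intervals leave room for subset differences of about the 0.5 threshold in Slfn8 and Slfn10-ps. Slfn4, Slfn14 and Slfnl1 lay between -0.19 and -0.04 in the 2 comparisons, with intervals from -0.49 to 0.40.

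**Figure D3:**
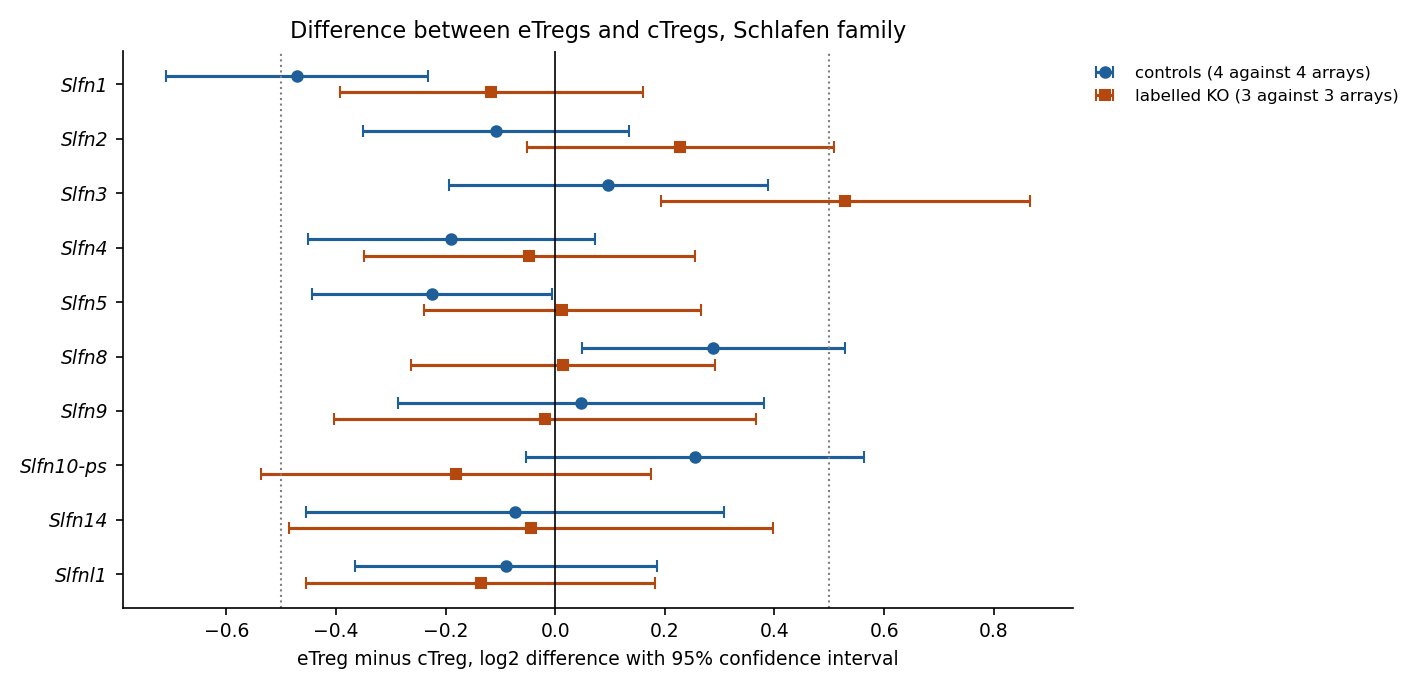
Log2 difference between eTregs and cTregs with its 95% confidence interval for the 10 Schlafen genes, in controls (circles, 4 against 4 arrays) and in arrays labelled KO (squares, 3 against 3); dotted lines mark 0.5 and -0.5. Slfn1 in controls, at -0.47, and Slfn3 in arrays labelled KO, at 0.53, lie farthest from 0.

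Whether the subset difference itself depended on the label was tested as an interaction, with limma and adjustment over all transcript clusters. None of the 10 members passed, nor did any transcript cluster (0 of 22203, 0%), and at an unadjusted P below 0.05 and any size 0 of 10 members passed against 6.12% of all. The estimates farthest from 0 were Slfn10-ps at -0.44 (-0.91 to 0.04, adjusted P = 0.822), Slfn3 at 0.43 (-0.01 to 0.88, adjusted P = 0.82) and Slfn1 at 0.35 (-0.01 to 0.72, adjusted P = 0.82). For Slfn8 the estimate was -0.27 (-0.64 to 0.09), which is also the amount by which its difference between labels was smaller in eTregs than in cTregs, and for Slfn9 it was -0.07 (-0.58 to 0.44). The choice of the family asked that Slfn8 rise and Slfn9 fall with the label in both subsets. For Slfn8 and Slfn9 the interaction is therefore not independent of that choice. Intervals of this width do not show that the subset differences were alike under both labels.

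After the group means were removed, the 10 members did not vary as one set. Over the 45 pairs of members the correlation of the deviations across 14 arrays had a median of 0.04 and ran from -0.63 (Slfn2 with Slfn14) to 0.87 (Slfn1 with Slfn2). Slfn2, Slfn1, Slfn4 and Slfn3 are consecutive among the measured genes of the block. Slfn2 with Slfn3 reached 0.73 and Slfn1 with Slfn3 0.53. Slfn4 was at 0.13 with Slfn1, -0.02 with Slfn2 and -0.23 with Slfn3. Slfn14 with Slfnl1, which lie on different chromosomes, reached 0.63. Slfn8 with Slfn9, at -0.92 over the raw signals, was at 0.02 after removal of the group means. Slfn8 with Slfn10-ps fell from 0.89 to 0.46 in the same way. The opposed signals of Slfn8 and Slfn9 were seen between the genotype labels and not between arrays of 1 group. These correlations share arrays and are given without a test.

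**Figure D4:**
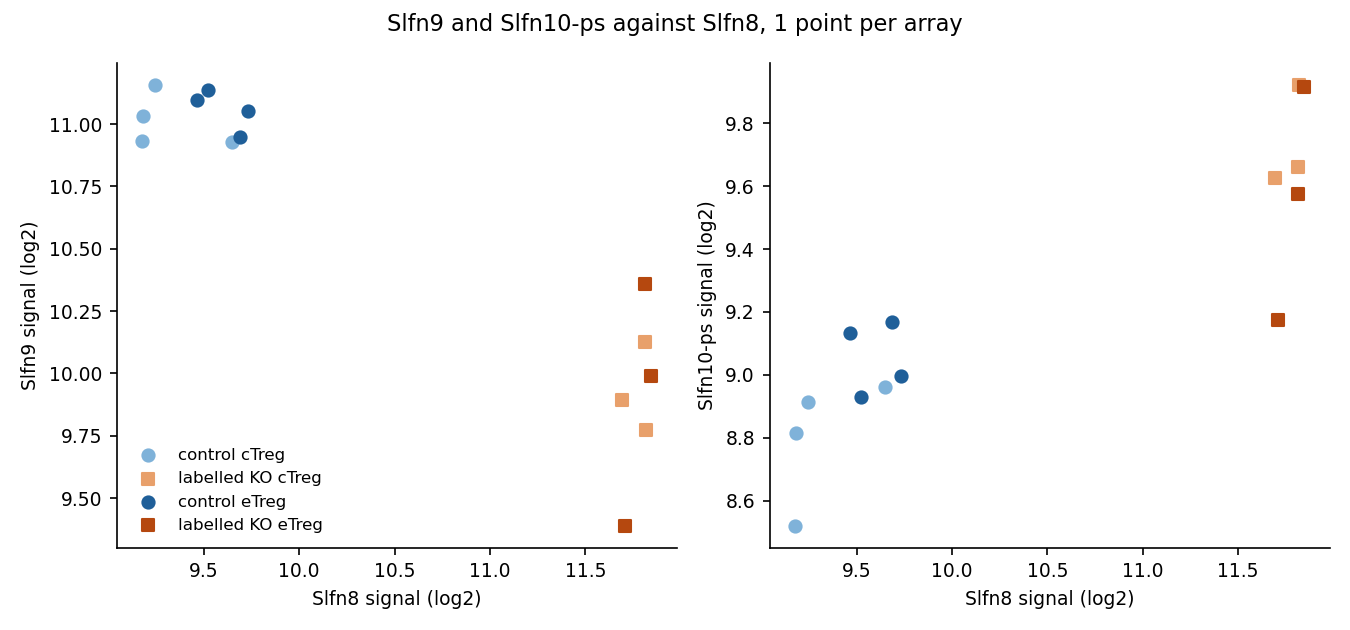
Log2 signal of Slfn9 (left) and Slfn10-ps (right) against that of Slfn8, with 1 point per array; squares are arrays labelled KO and circles controls, and the axes start at different values. The 8 control and 6 labelled KO arrays form separate clouds, with no slope to be read within a cloud for Slfn9, where the correlation without group means was 0.02.

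Genes whose signals followed or opposed Slfn8 or Slfn9 most closely over the 14 arrays lay on chromosome 11 and on several others. Irgm2 lies on chromosome 11, as do the Schlafen genes among them. H2-M3, Gm19684, Tmem181b-ps and Tmem181c-ps all lie on chromosome 17. Most like Slfn8 were Eps8l1 on chromosome 7 (Pearson r 0.97), which encodes a relative of the actin regulator Eps8, Clec3a (0.89), Slfn10-ps (0.89), Masp2 (0.88), a protease of the lectin complement pathway, and H2-M3 (0.87), a nonclassical class I molecule. Eps8l1 differed between labels by 2.27 in eTregs and 2.18 in cTregs, close to the 2.19 and 2.46 of Slfn8. Most opposite to Slfn8 were 4930481A15Rik (-0.96), Rab6b (-0.94), Tmem181b-ps (-0.93), Ppp1r3e (-0.93) and Slfn9 (-0.92). Most like Slfn9 were Gm19684 (0.92), Tmem181b-ps (0.90), 4930481A15Rik (0.88), Tmem181c-ps (0.88) and Ppp1r3e (0.87). Most opposite to Slfn9 after Slfn8 were Eps8l1 (-0.90), Irgm2 (-0.87), an interferon-inducible GTPase, Rasa4 (-0.86) and Masp2 (-0.86). All these genes were picked by r over the raw signals, which hold the step between labels that chose the family. That r also holds the variation within groups, so values without group means are not independent of the pick. They are given as descriptions, with no background beside them. Without the group means, Eps8l1 with Slfn8 was at 0.75, Clec3a at 0.62 and Slfn10-ps at 0.46, while Masp2 was at -0.12 and H2-M3 at -0.35. Of the genes opposite to Slfn8, Rab6b and Ppp1r3e were at -0.61 each, 4930481A15Rik at -0.25 and Tmem181b-ps at -0.09. With Slfn9, Gm19684 was at 0.62 and Rasa4 at -0.56, and the other genes named lay between -0.24 and 0.27.

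Other genes of the pathways in which Schlafens act were measured from lists. Of all transcript clusters, 2.14% rose and 0.919% fell from control cTregs to control eTregs at the limma threshold, and 2.02% rose and 0.329% fell in arrays labelled KO. Of 30 interferon-stimulated genes, 0 rose and 2 fell in control eTregs: Oas2, which senses double-stranded RNA, by -1.02 (adjusted P = 0.0144), and Usp18, which restrains interferon receptor signaling, by -0.82 (adjusted P = 0.006). In arrays labelled KO, 0 rose and 1 fell, Usp18 by -0.74 (adjusted P = 0.0408), while Oas2 was at -0.25 (adjusted P = 0.733). Between the labels, 26 of the 30 had a higher mean in labelled KO eTregs and 24 of 30 in labelled KO cTregs, against 44.2% and 54.8% of all transcript clusters, with medians of 0.24 and 0.15 beside -0.02 and 0.02 over all. None was called with limma at an adjusted P below 0.05 and a difference of 0.5 (0 of 30 in either subset), and 12 and 5 had an unadjusted P below 0.05, which 8.03% and 4.01% of all transcript clusters had. These counts took either direction, and the 12 held Ifit2, named after its value was seen, which was lower in labelled KO eTregs (-0.51). The 16 macrophage markers were also higher in labelled KO eTregs (16 of 16, median 0.92), and their part in the eTreg values was not tested; in cTregs 12 of 16 were higher (median 0.17).

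Among 12 interferon receptor and signaling genes, 1 was called between control subsets, Ifngr2, a chain of the interferon gamma receptor, lower in eTregs by -0.62 (adjusted P = 0.00244), and 0 of 12 in arrays labelled KO, where Ifngr2 was at -0.44 (adjusted P = 0.0762). Between labels 0 of 12 were called in either subset (1 and 0 at an unadjusted P below 0.05 with limma). Of 18 genes tied to T cell quiescence, the process in which Slfn2 is known, 5 fell and 0 rose in control eTregs (0.919% of all fell) and 4 fell and 0 rose in labelled KO eTregs (0.329% of all fell). Satb1, a chromatin organizer, fell by 1.08 (adjusted P = 9.94e-05), S1pr1, the receptor for exit from lymphoid tissue, by 0.87 (adjusted P = 0.000589), and Klf2, which drives S1pr1, by 0.87 (adjusted P = 0.000458), in controls. The remaining genes that fell, named after their values were seen, were Bach2 (-0.83) and Lef1 (-0.63), and in labelled KO eTregs the genes that fell were Satb1, S1pr1, Klf2 and Lef1, by 0.62 to 0.78. Slfn2 itself was not called in either comparison, at -0.11 and 0.23. Of 15 genes that cleave or process transfer RNA, 0 were called in either subset comparison with limma, with 3 and 1 at an unadjusted P below 0.05 (12.8% and 13.8% of all), and the farthest from 0 in controls were Tsen15 at -0.43 (adjusted P = 0.725) and Nsun2 at -0.41 (adjusted P = 0.379).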

How the data were processed

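Clariom S mouse arrays were used, 1 for each of 14 sorted Treg samples. The authors deposited log2 signals, made by robust multi-array averaging in Affymetrix Expression Console 1.1, a method that corrects background, quantile normalises all arrays together and can therefore pull unequal totals together; the genome build behind the probes was not given in the sources used here. Of 28846 entries, 6640 control probe sets and 3 entries with a blank symbol were left out, and 22203 transcript clusters were tested without a filter on signal. Arrays give no depth, and their number limits the precision. Group means were fitted in limma 3.58.1 (R 4.3.3) over the 4 groups, with 10 residual and 5.65 prior degrees of freedom and Benjamini-Hochberg adjustment over 22203; the fit was tested on simulated data. Thresholds were an absolute log2 difference of 0.5 and an adjusted P of 0.05. Counts over all transcript clusters between labels used an unadjusted P of 0.05 unless an adjusted P is named. Groups came from the sample titles. The members, gene lists and tests were chosen with earlier results of these data known. Genes named besides the members were the target, the sort and identity genes, the 5 flanking genes with the largest mean difference, the 5 most like and most opposite to Slfn8 and Slfn9, and from each list the 3 called genes with the largest control subset difference, or 2 if none was called; 1 sort gene is not reported here. Alternatives were fits of only the groups compared, a replicate block, a filter at the 40th percentile of mean signal, 2 rescalings, array weights, an intensity trend and each array left out; leaving out labelled KO eTreg 2 and 3 together was added after the macrophage sums were seen. No member had several transcript clusters, so that alternative did not apply. Promoters were taken from a RefSeq table (GRCm38.p6) and aligned with Biopython 1.88. Chromosome order was taken from RefSeq by symbol.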

Additional observations from a re-analysis of the deposited data

Results flagged for a closer look

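In 20 groups of 4 arrays, 2 single arrays stood apart from the other arrays of their group, where chance gives about 1 in 20. Slfn8 on control cTreg 1 was high, at 9.65 against 9.18 to 9.24 on the other 3, a gap of 0.858 of the group's range, and it stayed below every labelled KO array. Without that array the Slfn8 difference between control subsets was 0.40 (limma, adjusted P = 0.0436), under the size threshold of 0.5. Slfn5 on control eTreg 1 was low, at 11.60 against 11.80 to 11.84, a gap of 0.846 of the range, and without it the difference between control subsets was -0.17 (adjusted P = 0.668).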

How the results depend on the processing

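The differences of Slfn8, Slfn9 and Slfn10-ps between labels kept their sign under every alternative and with each array left out: Slfn8 from 2.14 to 2.57, Slfn9 from -1.37 to -0.70 and Slfn10-ps from 0.32 to 1.01 over both subsets. Members called between control subsets numbered 1 (Slfn1) with array medians subtracted (-0.52, adjusted P = 0.0255) and 1 with array weights (-0.55, adjusted P = 0.00087), and 0 to 1 with an array left out, 1 without control cTreg 1 or control eTreg 2. Not every same-numbered pair correlated above 0.1, so replicate numbers were not shown to pair the arrays, although they correlated more than other pairs: deviations of cTreg and eTreg arrays correlated at a mean of 0.168 with the same number (0.0443 to 0.303, 5 of 7 above 0.1) and -0.0632 with different numbers (1 of 18), and across labels at 0.18 (4 of 6) and -0.0577 (2 of 18). With the replicate block 1 member was called between labelled KO subsets, Slfn3 (0.53, adjusted P = 0.0235), and the block changed no other member's call; with an array left out it stayed at 0. The interaction called 0 members under every alternative. Over all transcript clusters, calls between labelled KO subsets went from 522 to 133 with only those groups fitted, 961 with array weights, 74 without labelled KO eTreg 2 and 3, and 219 to 1236 with an array left out (1236 without labelled KO eTreg 1). Interaction calls went from 0 to 1 with medians subtracted, 3 with array weights, 1 without labelled KO eTreg 2 and 3, and 0 to 207 with an array left out (207 without labelled KO eTreg 1). Between labels in eTregs 604 became 349 with the signal filter, 1144 without labelled KO eTreg 2 and 3, and 564 to 1104 with an array left out; in cTregs 128 became 82 with the filter and 125 to 314 with an array left out (314 without labelled KO cTreg 3, 220 without labelled KO cTreg 2). Between control subsets 680 ranged from 535 to 857 with an array left out. Of the transcript clusters counted between labels at the unadjusted P, the share higher in labelled KO cTregs moved from 33.6% to 22.8% with medians subtracted. It was 45.5% with 75th percentiles subtracted and 52.3%, a majority, without labelled KO cTreg 1. The share higher in labelled KO eTregs moved from 69.9% to 37.3% without labelled KO eTreg 2 and 3, and was 55.9% to 72.7% with 1 array left out. The cause of these shifts was not tested. Slfn4 and Slfn14 did not pass the signal filter.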

Other observations

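Genes of other cell types moved between the subsets, under both labels in several lists. Of 10 CD8 T and NK cell genes, 3 rose and 2 fell in control eTregs, where 2.14% of all transcript clusters rose and 0.919% fell: Gzmb, a cytotoxic granule protease, by 2.24 (limma, adjusted P = 0.00111), Klrb1c, the NK1.1 receptor, by 2.20 (adjusted P = 0.00892), and Nkg7 by 1.43 (adjusted P = 0.00163) had the largest differences. The genes that fell, named after their values were seen, were Prf1 (-1.30) and Cd8b1 (-0.62). Cd22 was the called gene of 10 B cell genes, higher in control eTregs by 0.89 (adjusted P = 0.00324), and Cybb, a phagocyte oxidase subunit, of 16 monocyte and macrophage genes, higher by 3.39 (adjusted P = 2.16e-05). Itgb3 was the called gene of 10 megakaryocyte and platelet genes, at -0.52 (adjusted P = 0.0178). Between the labelled KO subsets 2.02% of all transcript clusters rose and 0.329% fell in eTregs. There 3 of the 10 CD8 T and NK cell genes rose and 0 fell, and 1 of 10 B cell genes rose and 0 fell. Of the 16 monocyte and macrophage genes 6 rose and 0 fell, and 0 of 10 megakaryocyte and platelet genes were called.

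Among 12 dendritic cell genes limma called 0 between control subsets (7 at an unadjusted P below 0.05, against 12.8% of all), with H2-Aa at 0.95 (adjusted P = 0.101) and Itgax at 0.75 (adjusted P = 0.215), and 3 rose in labelled KO eTregs over labelled KO cTregs (2.02% of all rose), Itgax, H2-Aa and Siglech. Siglech, a receptor of plasmacytoid dendritic cells named after its value was seen, was also 1.78 higher in labelled KO than in control eTregs (adjusted P = 0.000483). It called 0 of 12 neutrophil genes (0 unadjusted), with Ngp at -0.34 and Cxcr2 at 0.26, and 0 of 10 erythroid genes (0 unadjusted), with Hbb-bs at 0.38 and Hba-a1 at 0.30, between control subsets. Of 10 Treg and sort genes, 3 rose in control eTregs with limma. They were Cd44 at 1.61, Ikzf2, the transcription factor Helios, at 0.71 (adjusted P = 0.000794) and Ctla4, an inhibitory receptor, at 0.58 (adjusted P = 0.0172). Between the labelled KO subsets 1 of 10 rose, Cd44 at 1.80 (adjusted P = 0.00036). Ikzf2 at 0.37 (adjusted P = 0.15) and Ctla4 at 0.52 (adjusted P = 0.0903) were not called there. Summed signals of the dendritic cell list ran from 7872 to 9349 in control eTregs and from 9117 to 19500 in labelled KO eTregs.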
